A study of Homo sapiens with 6 samples.

Results

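The genes described here belong to ribosome synthesis, RNA polymerase I and the DEAD-box RNA helicase family, and were picked by symbol. A protein-coding gene was a member if its symbol was NOP, NOL, UTP, RRP, GNL or DDX followed directly by a digit, or POLR1 followed by a subunit letter, with BOP1, BYSL and RRS1 added and DDX58 left out. The rule found 62 members among 14884 named genes. By textbook role, 40 of the 62 make ribosomes or transcribe ribosomal RNA, and the other 22 are mostly helicases of splicing, mRNA export, translation or mRNA decay. The name of the group therefore covers 40 of its members, of which 2, POLR1F and POLR1H, are subunits of RNA polymerase I.

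Affymetrix Human Gene 2.0 ST arrays were used to profile total RNA of SH-SY5Y, a neuroblastoma line of human origin with features of sympathetic neurons. Cells were given securinine, a plant alkaloid, at 30 µM, the compound 16F16 at 4 µM, or the solvent methanol as mock treatment, each for 24 h and each on 2 arrays. The series' design text describes both compounds as inhibitors of protein disulfide isomerase, an enzyme of the endoplasmic reticulum that forms and rearranges disulfide bonds. All groups were the same line in the same medium, and the doses of the compounds differed. Each pair is titled as biological replicates, with no word on separate cultures, so p-values cover only the spread between these samples, which may be technical.

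Values are log2 expression values relative within the set of 6 arrays, so a change shared by most genes would not be seen. In a bulk sample, fewer cells of a kind and less RNA per cell cannot be told apart. Array medians lay between 4.16 and 4.23 over 53617 probe sets, and arrays of a group correlated at 0.986 to 0.990. Of 15 markers of noradrenergic neuroblastoma cells 12 were measured, none at or below the lower quartile of any array. Their mean level was 9.24 and 9.35 with securinine, 9.55 and 9.54 with 16F16, and 9.88 and 9.89 in mock cells. Of 14 markers of epithelium, blood, endothelium, fibroblasts and glia 9 were measured, with mean levels of 4.95 and 4.98 with securinine, 4.81 and 5.02 with 16F16, and 4.86 and 4.84 in mock cells, and at most 1 of the 9 at or below the lower quartile of an array. The blood markers CD68, also a lysosomal protein, and CD14 rose with securinine by 2.18 ± 0.20 and 0.57 ± 0.14 on the log2 scale (SE of the fit), and CD14 lost that call without any 1 of the mock or securinine arrays. Of the same 9 markers 7 were below 0 with securinine, and their median difference was -0.11. At an unadjusted p under 0.05 limma gave 2 lower and 2 higher, against 18.7% and 14.9% of all genes. The part of these marker changes in the results that follow was not tested.

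Ribosomes are built in the nucleolus. RNA polymerase I copies the ribosomal DNA into a long precursor RNA, which small nucleolar ribonucleoproteins (snoRNPs) modify, and which a large assembly called the small subunit processome and a series of large subunit particles fold, cut and load with ribosomal proteins. DEAD-box helicases remodel RNA at many of these steps, and other members of the same family act in splicing, export, translation and decay of mRNA. Fast-growing cells, neuroblastoma among them, need a high output of this pathway, and the transcription factor MYC is a known activator of many of its genes. The arrays measured mRNA of these genes and not ribosomal RNA or its precursors.

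Securinine against mock was the first comparison. More members fell with securinine than rose: of the 62, 15 fell and 2 rose in limma at an adjusted p under 0.05, and 45 did not pass. The share that fell was 24.2%, against 10.6% of all genes tested and 12.2% of the protein-coding genes in the same fit. The share that rose was 3.23%, against 8.40% of all genes and 9.13% of the protein-coding ones. Members were also brighter, with a median level of 7.75 against 5.65 over all genes and 6.21 over the protein-coding ones. The part of level in these shares was not tested. Both securinine arrays lay below both mock arrays for 39 members (62.9%, against 33.9% of all genes) and above them for 12 (27.0% of all genes). The median log2 difference was -0.15 over the members and -0.035 over all genes. Over the 40 ribosome synthesis members the median was -0.22, with 12 that fell (30.0%) and 1 that rose (2.5%). Over the 22 members of other roles it was -0.11, with 3 that fell (13.6%) and 1 that rose (4.55%). The 13.6% was near the shares of all genes and of the protein-coding ones.

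The count of members that fell depended on the mock and securinine arrays. It was 13 when either 16F16 array was left out, and also with only the 4 mock and securinine arrays. It was 1 when mock replicate 1 was left out (2.59% of all genes fell in that fit) and 3 for mock replicate 2 (2.53%). It was 2 when securinine replicate 1 was left out (2.95% of all genes) and 4 for securinine replicate 2 (3.99%). The counts of members and of all genes dropped together. Without mock replicate 1 the share of the 62 members that fell was below that of all genes. It was near that of all genes without securinine replicate 1, and above it without mock replicate 2 or securinine replicate 2. The median difference of the 40 ribosome synthesis members stayed between -0.26 and -0.21 when any 1 array was left out.

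**Figure D1:**
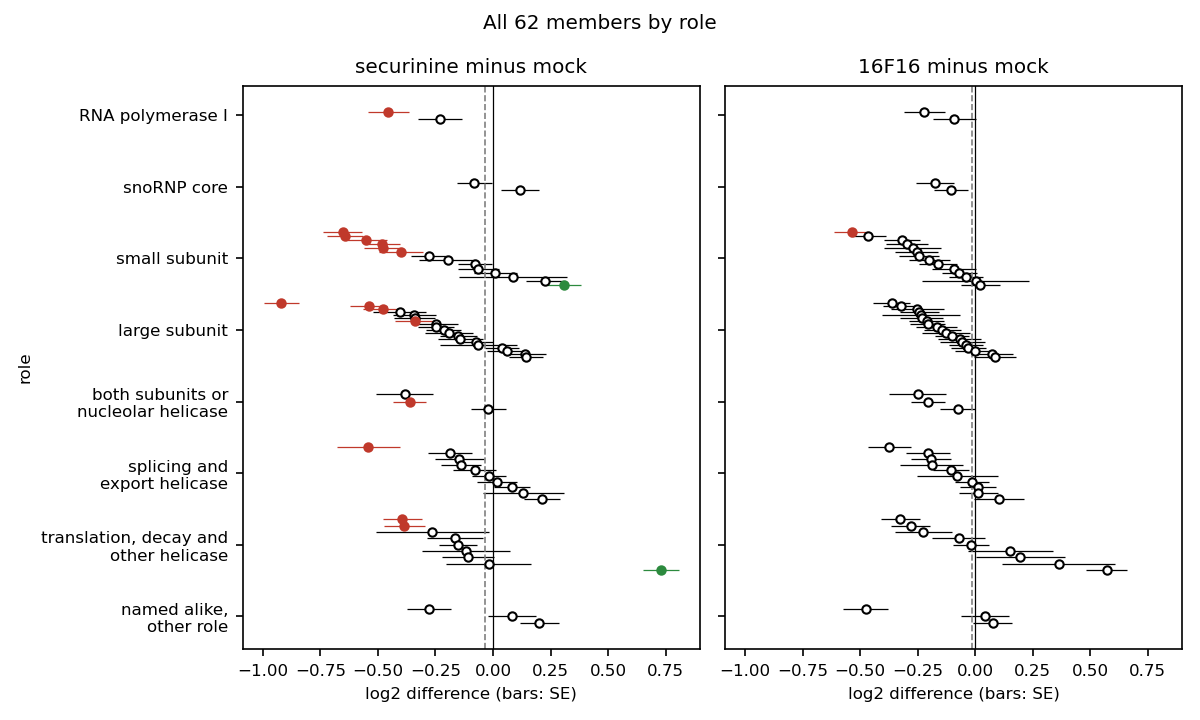
Log2 differences from mock of all 62 members, grouped by role, with securinine on the left and 16F16 on the right. Points are genes, bars are the SE of the fit, red marks genes that fell and green genes that rose at an adjusted p under 0.05, open points did not pass, and the dashed line is the median of all 14884 genes. With securinine the called genes that fell lie mainly in the small and large subunit rows, and with 16F16 most points of those rows also lie left of 0 but only DDX10 passed.

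Small subunit factors held the most calls. Of 14 measured, 6 fell (42.9%, against 10.6% of all genes), 1 rose (7.14%, against 8.40%) and 7 did not pass, and the median difference was -0.24. The 6 became 0 and 2 when mock replicate 1 or 2 was left out, 1 and 3 for securinine replicate 1 or 2, and stayed at 6 without either 16F16 array. NOP14, a scaffold protein of the processome, stood at 7.38 and 7.48 on the securinine arrays, 7.84 and 7.83 with 16F16, and 8.13 and 8.02 in mock cells. BYSL, which stays with the small subunit until its export to the cytoplasm, stood at 7.07 and 7.07 with securinine, 7.23 and 7.26 with 16F16, and 7.76 and 7.67 in mock cells. In both genes the 3 groups did not overlap, and the securinine arrays were the lowest. NOP14 differed by -0.65 ± 0.085 with securinine (SE of the limma fit, n = 2 arrays per group, adjusted p = 0.0079) and BYSL by -0.64 ± 0.078 (adjusted p = 0.0067). The call was lost for BYSL without mock replicate 1 (adjusted p = 0.052), and for NOP14 without mock replicate 1 or securinine replicate 1, where the adjusted p reached at most 0.057.

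The helicases DDX49 and DDX10, both of which act on the small subunit precursor in yeast, also fell. DDX49 stood at 8.48 and 8.64 with securinine, 8.85 and 8.78 with 16F16, and 9.14 and 9.08 in mock cells, a difference of -0.55 ± 0.090 with securinine (adjusted p = 0.013). DDX10 stood at 7.02 and 7.09 with securinine, 7.01 and 6.99 with 16F16, and 7.56 and 7.51 in mock cells. Its difference with securinine was -0.48 ± 0.077 (adjusted p = 0.013), and its 16F16 arrays were the lowest of the 6. The processome protein UTP25 stood at 7.87 and 7.95 with securinine, 8.24 and 8.20 with 16F16, and 8.34 and 8.43 in mock cells, and fell by 0.48 ± 0.082 with securinine (adjusted p = 0.016). NOP9, an RNA-binding protein that guards a cleavage site of the small subunit RNA in yeast, stood at 7.16 and 7.08 with securinine, 7.53 and 7.33 with 16F16, and 7.54 and 7.50 in mock cells. It fell by 0.40 ± 0.097 with securinine (adjusted p = 0.040). DDX49 kept its call without securinine replicate 2 and lost it without either mock array or without securinine replicate 1. DDX10, UTP25 and NOP9 lost it without any 1 of the 4 arrays compared.

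Not every small subunit factor was lower. The helicase DDX52, counterpart of yeast Rok1, stood at 9.34 and 9.34 with securinine, 8.99 and 8.99 with 16F16, and 9.05 and 9.01 in mock cells. Its rise with securinine of 0.31 ± 0.074 passed (adjusted p = 0.039), but did not pass once each array was centred on its median or quantile normalized, nor without any 1 of the 6 arrays. RRP36 stood at 9.80 and 9.82 with securinine, 9.62 and 9.60 with 16F16, and 9.52 and 9.65 in mock cells, a difference of 0.23 ± 0.084 with securinine. The helicase DDX47 stood at 7.48 and 7.49 with securinine, 7.47 and 7.42 with 16F16, and 7.79 and 7.73 in mock cells, a difference of -0.28 ± 0.078. In both the securinine and mock arrays did not overlap, and neither passed. The processome proteins NOL6, NOL10, NOL11, RRP7A and UTP18 were between -0.20 and 0.086 and did not pass.

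Large subunit factors held the member with the largest fall. RRS1, which with its partner RPF2 brings the 5S RNA particle into the large subunit precursor, stood at 7.15 and 7.10 with securinine, 7.71 and 7.73 with 16F16, and 8.02 and 8.07 in mock cells. The groups did not overlap, and the securinine mean was 0.53 of the mock mean on the linear scale. RRS1 fell by 0.92 ± 0.076 on the log2 scale (adjusted p = 0.0034), and kept its call in all 17 alternative analyses. GNL2, a GTPase needed for export of the large subunit precursor, stood at 9.28 and 9.34 with securinine, 9.46 and 9.50 with 16F16, and 9.89 and 9.80 in mock cells. Its difference with securinine was -0.54 ± 0.081 (adjusted p = 0.011).

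NOP53, which in yeast docks the RNA exosome on the large subunit precursor, had a different pattern. It stood at 9.004 and 9.11 with securinine, 9.59 and 9.47 with 16F16, and 9.54 and 9.52 in mock cells. Only the securinine arrays were low, with a difference of -0.48 ± 0.087 (adjusted p = 0.018), and the 16F16 arrays overlapped the mock arrays. RRP1B, a nucleolar protein of the RRP1 family, stood at 8.01 and 7.92 with securinine, 8.10 and 8.02 with 16F16, and 8.27 and 8.34 in mock cells, and fell by 0.34 ± 0.084 with securinine (adjusted p = 0.044). GNL2, NOP53 and RRP1B lost their calls without any 1 of the mock or securinine arrays, and RRP1B also without either 16F16 array.

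In total 4 of 19 large subunit factors fell (21.1%, against 10.6% of all genes), 0 rose and 15 did not pass, with a median of -0.21. The count was 1 without any 1 of the mock or securinine arrays and 3 without either 16F16 array. At an unadjusted p under 0.05 limma gave 10 lower and 0 higher, against 18.7% and 14.9% of all genes. Among those that did not pass, BOP1, a scaffold that works with PES1 and WDR12, was at -0.41 ± 0.11. The helicase DDX54 was at -0.34 ± 0.094 with securinine. NOL12, an RNA-binding nucleolar protein, stood at 6.23 and 6.40 with securinine, 6.501 and 6.48 with 16F16, and 6.65 and 6.67 in mock cells, a difference of -0.34 ± 0.090 with securinine. NOP2, a methyltransferase of the large subunit RNA, was at 0.039 ± 0.075, and the GTPase GNL3L at 0.063 ± 0.087. The helicase DDX31 stood at 7.40 and 7.40 with securinine, 7.21 and 7.25 with 16F16, and 7.25 and 7.27 in mock cells, and its difference of 0.14 ± 0.074 was the highest of the 19.

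The rule found only 2 subunits of RNA polymerase I among the named genes, so these values cover only part of the polymerase. POLR1H is the small subunit linked to RNA cleavage by the polymerase. It stood at 5.99 and 6.07 with securinine, 6.26 and 6.27 with 16F16, and 6.57 and 6.41 in mock cells. The 3 groups did not overlap, and its difference with securinine was -0.45 ± 0.090 (adjusted p = 0.023), a call lost without any 1 of the mock or securinine arrays. POLR1F, part of the stalk that meets the initiation factor RRN3, stood at 6.84 and 6.74 with securinine, 6.90 and 6.96 with 16F16, and 7.10 and 6.94 in mock cells. Its difference with securinine of -0.23 ± 0.094 did not pass (adjusted p = 0.16).

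The 2 members that are core snoRNP proteins did not pass. NOP58, of the particles that guide ribose methylation, stood at 10.40 and 10.28 with securinine, 10.03 and 10.06 with 16F16, and 10.24 and 10.20 in mock cells, a difference of 0.12 ± 0.082 with securinine. NOP10, of the particles that guide pseudouridylation, stood at 10.05 and 10.10 with securinine, 10.04 and 10.06 with 16F16, and 10.17 and 10.15 in mock cells, a difference of -0.081 ± 0.075. The 2 genes had securinine arrays on opposite sides of the mock arrays. Of the core snoRNP proteins outside the 62 members, FBL, the methyltransferase of the first kind of particle, fell by 0.50 ± 0.10 with securinine (adjusted p = 0.026), and NHP2, of the second kind, by 0.42 ± 0.099 (adjusted p = 0.036). FBL lost its call without any 1 of the mock or securinine arrays and NHP2 without any 1 of the 6 arrays. GAR1, also of the second kind, was at -0.13 ± 0.082 and SNU13, of the first, at -0.18 ± 0.10, and neither passed. Among factors that serve both subunits, DDX21, a nucleolar helicase linked to transcription of ribosomal RNA and snoRNA genes, stood at 10.40 and 10.39 with securinine, 10.55 and 10.55 with 16F16, and 10.76 and 10.76 in mock cells. Arrays of a group were close together and the 3 groups were apart. DDX21 fell by 0.36 ± 0.073 with securinine (adjusted p = 0.024), a call lost without any 1 of the mock or securinine arrays. Its close relative DDX50 stood at 8.93 and 8.95 with securinine, 8.88 and 8.89 with 16F16, and 8.94 and 8.99 in mock cells, a difference of -0.021 ± 0.075. RRP12, which helps to export both subunit precursors in yeast, stood at 8.05 and 8.18 with securinine, 8.40 and 8.10 with 16F16, and 8.46 and 8.54 in mock cells, and its difference of -0.38 ± 0.12 did not pass (adjusted p = 0.085).

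**Figure D2:**
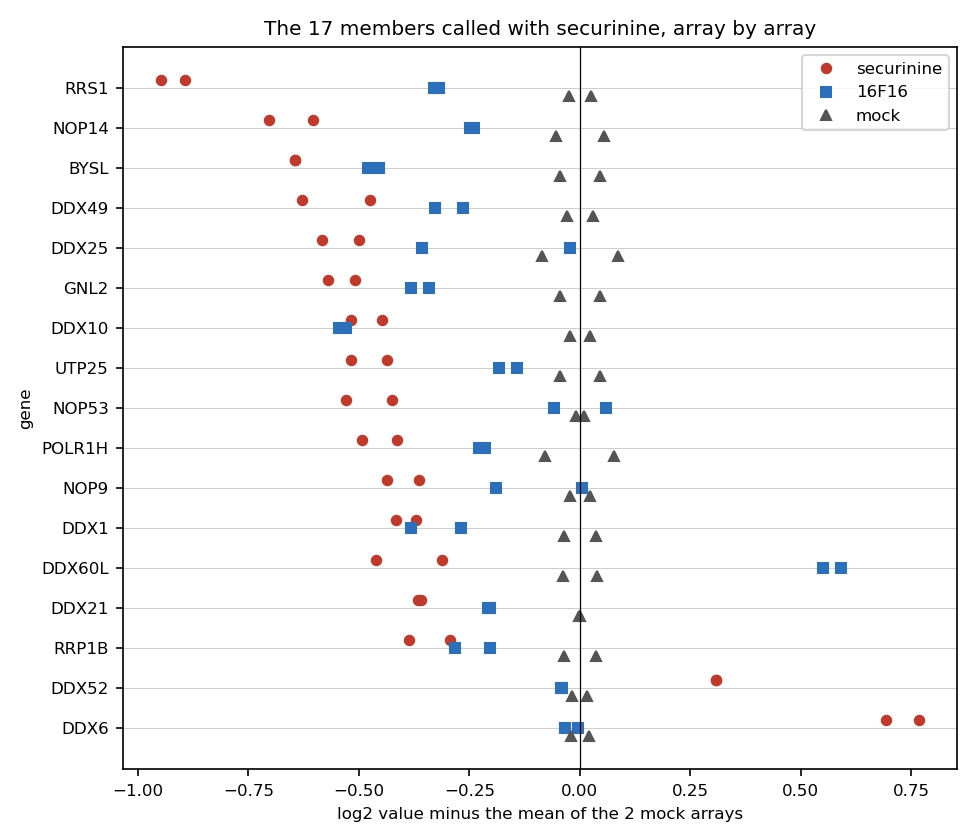
Values of the 17 members that passed with securinine, on each of the 6 arrays. The x axis is the log2 value minus the mean of the 2 mock arrays, circles are securinine, squares 16F16 and triangles mock. The 15 genes that fell lie left of the mock arrays with securinine, DDX52 and DDX6 lie right of them, and the 16F16 arrays of DDX60L lie on the opposite side from its securinine arrays.

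The member with the largest rise was a helicase outside ribosome synthesis. DDX6, which represses translation and promotes decapping of mRNA in P-bodies, stood at 11.41 and 11.34 with securinine, 10.61 and 10.64 with 16F16, and 10.63 and 10.67 in mock cells. The securinine arrays stood apart and the 16F16 arrays overlapped the mock arrays. DDX6 rose 1.66-fold with securinine, by 0.73 ± 0.078 on the log2 scale (adjusted p = 0.0050), and kept its call in all 17 alternative analyses. DDX1, a helicase of the tRNA ligase complex, stood at 9.98 and 9.93 with securinine, 10.08 and 9.97 with 16F16, and 10.31 and 10.39 in mock cells, and fell by 0.39 ± 0.084 with securinine (adjusted p = 0.029).

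DDX25, a helicase known from mRNA export in the testis, stood at 5.58 and 5.49 with securinine, 6.05 and 5.72 with 16F16, and 5.99 and 6.16 in mock cells. Its difference with securinine was -0.54 ± 0.14 (adjusted p = 0.045). DDX60L, a relative of the interferon-induced helicase DDX60, fell by 0.39 ± 0.089 with securinine (adjusted p = 0.036), at levels of 3.55 and 3.70 with securinine, 4.56 and 4.60 with 16F16, and 4.05 and 3.97 in mock cells. DDX1, DDX25 and DDX60L lost these calls without any 1 of the mock or securinine arrays, and DDX60L also without either 16F16 array.

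The 9 other splicing and export helicases did not pass with securinine, so with DDX25 1 of 10 fell (10.0%, near the 10.6% of all genes). In the group of translation, decay and other helicases 2 of 9 fell (22.2%) and 1 rose (11.1%, against 8.40% of all genes). The splicing helicases DDX17, DDX23, DDX41, DDX42 and DDX46, the export helicases DDX19A and DDX19B, DDX20 of the SMN complex and the splicing and microRNA cofactor DDX5 lay between -0.19 and 0.21. DDX17 stood at 9.49 and 9.53 with securinine, 9.35 and 9.27 with 16F16, and 9.28 and 9.32 in mock cells, with its securinine arrays the highest. DDX19A stood at 7.78 and 7.67 with securinine, 7.78 and 7.62 with 16F16, and 7.95 and 7.87 in mock cells, and DDX20 at 6.60 and 6.58 with securinine, 6.58 and 6.49 with 16F16, and 6.67 and 6.79 in mock cells. DDX19B stood at 7.94 and 7.80 with securinine, 8.08 and 8.16 with 16F16, and 8.12 and 7.91 in mock cells, where the securinine and mock arrays overlapped. In the last helicase group DDX28, which helps to assemble the mitochondrial ribosome, stood at 6.45 and 6.29 with securinine, 6.45 and 6.17 with 16F16, and 6.52 and 6.56 in mock cells, a difference of -0.16 ± 0.12 with securinine. DDX59 stood at 5.23 and 5.30 with securinine, 5.20 and 5.07 with 16F16, and 5.41 and 5.42 in mock cells, a difference of -0.15 ± 0.085. The germline helicases DDX4, DDX43 and DDX53 lay at or below the lower quartile on all 6 arrays and DDX60 on 3 of 6, near the dim end of these arrays. Of 3 members that only share the naming pattern, NOL4 was at -0.28 ± 0.098, NOL4L at 0.083 ± 0.10 and GNL1 at 0.20 ± 0.085, and none passed. NOL4L stood at 5.77 and 5.85 with securinine, 5.74 and 5.80 with 16F16, and 5.61 and 5.84 in mock cells, and GNL1 at 7.80 and 7.76 with securinine, 7.69 and 7.62 with 16F16, and 7.52 and 7.64 in mock cells.

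16F16 against mock was the second comparison. It shares the mock arrays with the first, so the values are given side by side and no overlap is read from them. Of the 62 members 1 fell, 0 rose and 61 did not pass, against 0.779% of all genes that fell (members 1.61%) and 0.719% that rose. The member was DDX10, whose difference of -0.54 ± 0.077 passed narrowly (adjusted p = 0.043). Both 16F16 arrays lay below both mock arrays for 38 members (61.3%, against 27.7% of all genes) and above them for 3 (24.1% of all genes). The median difference was -0.14 over the members, -0.17 over the 40 ribosome synthesis members and -0.012 over all genes.

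At an unadjusted p under 0.05 limma gave 16 lower members and 1 higher with 16F16, against 11.3% and 9.78% of all genes. DDX10 lost its call without any 1 of the 6 arrays, fits in which no gene at all passed, and also when each array was centred on its median. When the variance prior was allowed to follow intensity, 16 members passed, beside 955 lower and 853 higher genes in all. After DDX10 the lowest p-values belonged to DDX60L (0.57 ± 0.089, adjusted p = 0.052), BYSL (-0.47 ± 0.078, adjusted p = 0.058), NOL4 (-0.48 ± 0.098, adjusted p = 0.075), GNL2 (-0.36 ± 0.081, adjusted p = 0.088) and RRS1 (-0.32 ± 0.076, adjusted p = 0.097). The helicase DDX47 of the small subunit was at -0.32 ± 0.078 and the splicing helicase DDX42 at -0.37 ± 0.092. NOL4, a nucleolar protein of neurons, stood at 7.99 and 8.10 with securinine, 7.94 and 7.75 with 16F16, and 8.32 and 8.32 in mock cells. DDX42 stood at 10.23 and 10.26 with securinine, 10.04 and 9.87 with 16F16, and 10.30 and 10.36 in mock cells, with the 16F16 arrays lowest.

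16F16 against securinine tested where the treatments differed at the doses used. Of the 62 members 4 were higher with 16F16 than with securinine and 2 lower (6.45% and 3.23%), against 5.55% and 3.96% of all genes, so the shares were near those of all genes. RRS1 was higher with 16F16 by 0.60 ± 0.076 (adjusted p = 0.016), NOP53 by 0.48 ± 0.087 (adjusted p = 0.032) and NOP14 by 0.41 ± 0.085 (adjusted p = 0.043). DDX60L was higher by 0.96 ± 0.089 (adjusted p = 0.0098), with all its 16F16 arrays above and all its securinine arrays below the mock arrays. The 2 lower with 16F16 were DDX6, at -0.75 ± 0.078 (adjusted p = 0.011), and DDX52, at -0.35 ± 0.074 (adjusted p = 0.044).

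Calls of this comparison dropped over all genes when any 1 array was left out, so the losses that follow are not particular to these members. DDX6 and DDX60L lost the call without either securinine array or without 16F16 replicate 1. The other 4 lost it without any 1 of the 6 arrays, and the count of 6 fell to between 0 and 2 in those fits. For DDX10 no difference between the treatments was found, at -0.055 with a 95% interval from -0.25 to 0.14. For BYSL it was 0.18 (interval -0.017 to 0.37) and for GNL2 0.18 (interval -0.024 to 0.38). Equal responses were not shown by these intervals.

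**Figure D3:**
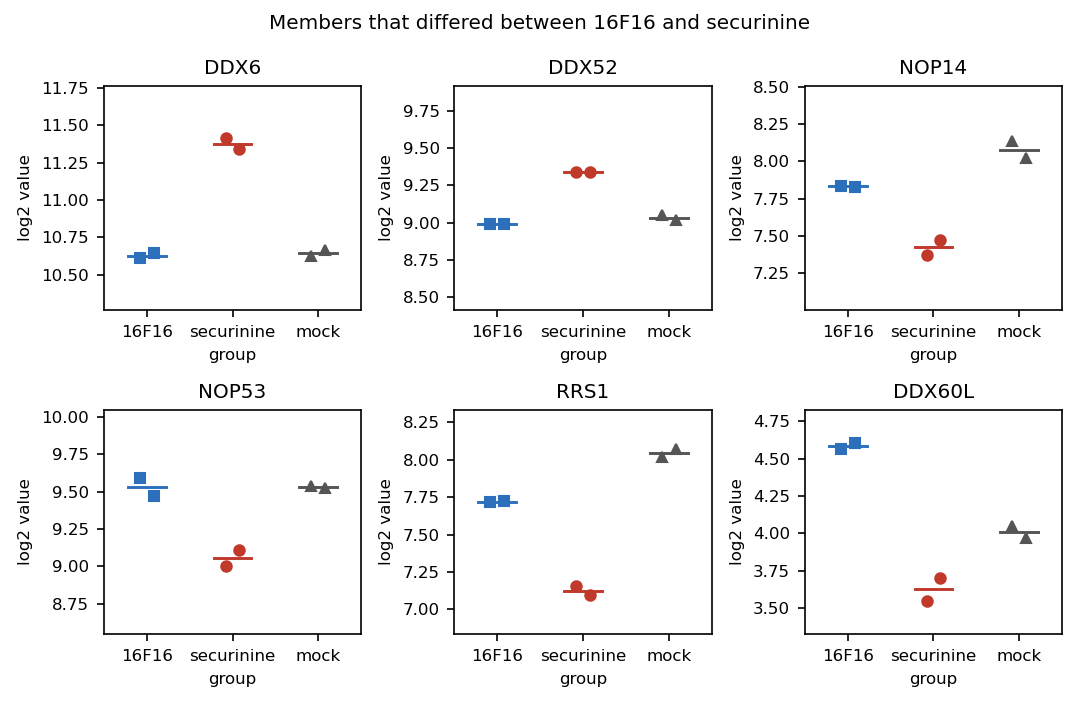
Log2 values of the 6 members that differed between 16F16 and securinine, with 16F16, securinine and mock from left to right. Points are arrays and lines the means of 2 arrays, and all y axes span the same range. With 16F16 DDX6, DDX52 and NOP53 lie at or near the mock level, NOP14 and RRS1 lie between securinine and mock, and DDX60L lies above mock.

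Promoters of the members were searched for CACGTG, the E-box sequence that MYC with its partner MAX is known to bind. MYC itself stood at 6.36 and 6.49 with securinine, 7.65 and 7.14 with 16F16, and 8.95 and 9.14 in mock cells, a difference of -2.62 ± 0.18 with securinine (adjusted p = 0.0025) and of -1.65 ± 0.18 with 16F16 (adjusted p = 0.030, with no gene passing in limma when any 1 array was left out, and 2099 to 2904 genes at an unadjusted p under 0.05 in those fits). Windows of 300 bases, from 250 before to 50 after a gene's start, came from RefSeq (GRCh38.p14), and 54 of the 62 members were matched to one, all but BOP1, DDX49, DDX52, NOL10, NOP58, RRP12, RRP1B and RRS1. NOP14, BYSL, GNL2 and DDX10 are shown as the ribosome synthesis members with the largest falls with securinine among those 54, chosen after their values were seen. They are NOP14 at chr4:2963357-2963656 (minus strand), BYSL at chr6:41921249-41921548 (plus strand), GNL2 at chr1:37595888-37596187 (minus strand) and DDX10 at chr11:108664819-108665118 (plus strand), each read 5′ to 3′ with CACGTG in capitals. The window of BYSL lies inside the RefSeq span of that gene, at a start downstream of its outermost end.
NOP14: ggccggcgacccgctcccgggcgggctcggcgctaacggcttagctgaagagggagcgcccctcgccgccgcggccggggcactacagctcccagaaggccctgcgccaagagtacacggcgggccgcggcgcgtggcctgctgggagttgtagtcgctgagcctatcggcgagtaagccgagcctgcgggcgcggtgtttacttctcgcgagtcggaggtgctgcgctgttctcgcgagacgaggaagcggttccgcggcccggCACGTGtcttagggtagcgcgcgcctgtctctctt
BYSL: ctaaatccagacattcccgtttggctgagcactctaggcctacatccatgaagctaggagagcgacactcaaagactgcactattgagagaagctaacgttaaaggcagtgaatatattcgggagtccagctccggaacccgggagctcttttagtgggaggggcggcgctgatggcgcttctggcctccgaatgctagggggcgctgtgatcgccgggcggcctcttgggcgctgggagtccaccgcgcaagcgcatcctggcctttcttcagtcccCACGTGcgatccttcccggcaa
GNL2: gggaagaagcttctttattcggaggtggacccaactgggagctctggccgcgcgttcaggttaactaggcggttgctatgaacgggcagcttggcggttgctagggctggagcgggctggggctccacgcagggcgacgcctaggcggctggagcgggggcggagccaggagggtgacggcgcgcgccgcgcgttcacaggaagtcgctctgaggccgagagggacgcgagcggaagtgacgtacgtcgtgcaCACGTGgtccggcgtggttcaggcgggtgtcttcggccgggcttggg
DDX10: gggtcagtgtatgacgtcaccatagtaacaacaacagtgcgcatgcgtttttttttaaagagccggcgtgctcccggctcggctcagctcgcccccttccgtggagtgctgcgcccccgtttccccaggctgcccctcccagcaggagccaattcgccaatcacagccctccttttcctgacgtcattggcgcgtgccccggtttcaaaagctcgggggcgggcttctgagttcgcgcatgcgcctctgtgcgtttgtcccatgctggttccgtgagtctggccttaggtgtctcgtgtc

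CACGTG reads the same on both strands. It begins 15 bases after the start in NOP14, 28 after it in BYSL and 3 after it in GNL2, counting the start base as 0. The window of DDX10 does not hold it. Of the 32 ribosome synthesis members with a window 11 held it (34.4%), against 2 of 22 other members (9.09%), 883 of 9707 protein-coding genes on the array (9.10%) and 2030 of all 27305 windows (7.43%). Of the protein-coding genes that fell with securinine 140 of 1184 with a window held it (11.8%). Among ribosome synthesis members it was in 4 of 9 that fell with securinine (44.4%) and 7 of 23 that did not (30.4%). Besides the 3 shown, UTP25 held it among those that fell, and NOP2, NOL6, NOL8, NOP10, UTP18, DDX31 and DDX54 held it without passing. A match describes letters in this window. Binding of MYC was not measured.

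Other genes of the pathway were read from lists not built on the naming pattern. Of 66 measured nucleolar and assembly factors outside the 62 members 27 fell with securinine and 0 rose (40.9% fell, against 10.6% of all genes), with a median of -0.30, and 38 were lower and 4 higher at an unadjusted p under 0.05 (18.7% and 14.9% of all genes). NLE1, a large subunit assembly factor, fell (-0.99 ± 0.11), as did RUVBL2, a subunit of the snoRNP assembly helicase (-0.70 ± 0.087). WDR18, a partner of the large subunit processing complex, fell by 0.67 ± 0.078. NOB1, the nuclease that makes the final cut of small subunit RNA, fell by 0.65 ± 0.078. The count of 27 dropped to 3 when mock replicate 1 was left out and to 4 for mock replicate 2. It dropped to 4 when securinine replicate 1 was left out and to 7 for securinine replicate 2. With 16F16 2 of the 66 fell (3.03%, against 0.779% of all genes) and 0 rose. The 2 were WDR18 (-0.66 ± 0.078) and the exonuclease XRN2 (-0.55 ± 0.081), and the median of the 66 was -0.24. At an unadjusted p under 0.05 limma gave 34 lower and 0 higher with 16F16, against 11.3% and 9.78% of all genes.

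**Figure D4:**
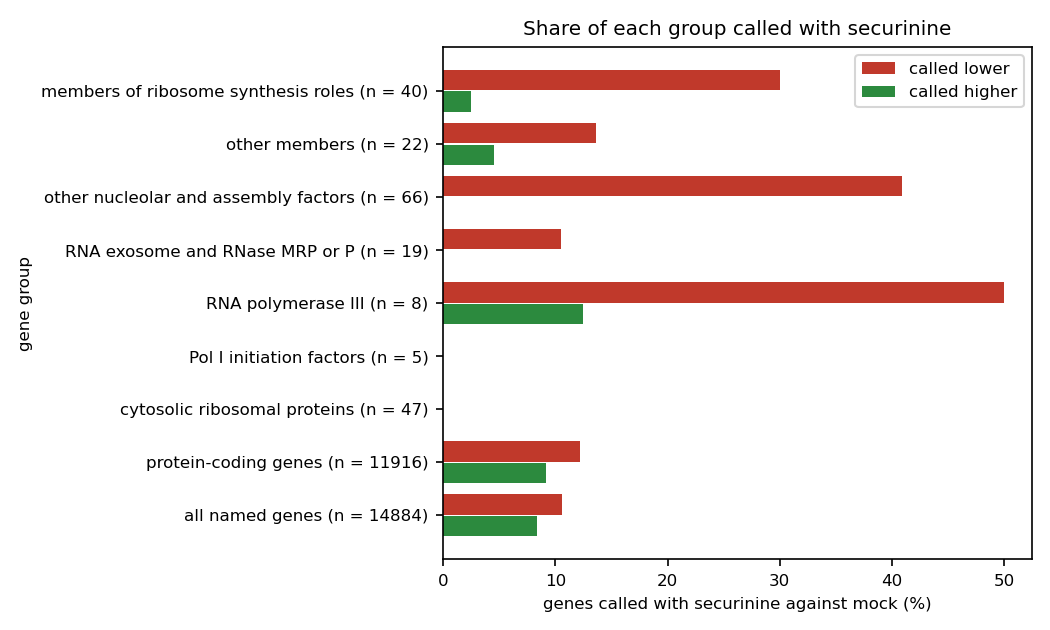
Percentage of measured genes in each group that were called lower (red) or higher (green) with securinine against mock at an adjusted p under 0.05, with the number measured beside each name. Members of ribosome synthesis roles (30.0% lower) and the other nucleolar and assembly factors (40.9% lower) lie above all named genes (10.6% lower), and no cytosolic ribosomal protein or RNA polymerase I initiation factor was called.

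Of 8 measured genes of RNA polymerase III and its factors, which make 5S ribosomal RNA and tRNA, 4 fell with securinine (against 10.6% of all genes) and 1 rose. The subunits POLR3G, POLR3B and POLR3GL fell (-0.87 ± 0.13, -0.68 ± 0.096 and -0.67 ± 0.14 in that order). The 5S factor GTF3A fell by 0.44 ± 0.076, and the subunit CRCP rose by 0.70 ± 0.079. POLR3B also fell with 16F16, by 0.82 ± 0.096, as 1 of the 8 (12.5%, against 0.779% of all genes). The 4 that fell with securinine became 1 and 0 when mock replicate 1 or 2 was left out, and 0 and 2 for securinine replicate 1 or 2. Of 19 genes of the RNA exosome and of RNase MRP or P, EXOSC5 (-1.23 ± 0.089) and RPP40 (-0.79 ± 0.17) fell with securinine and 0 rose, a share of 10.5% that is near the 10.6% of all genes. RPP40 lost its call without any 1 of the mock or securinine arrays. EXOSC4 at -0.34 ± 0.099 and EXOSC8 at -0.24 ± 0.076 did not pass. With 16F16 0 of those 19 passed in limma, near the 1.5% of all genes (3 at an unadjusted p under 0.05).

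No measured gene of the products or of the initiation machinery was called against mock in the main fit. None of 47 cytosolic ribosomal protein genes passed in limma with securinine, against 19.0% of all genes, or with 16F16, against 1.5%. The 0 of 47 thus lies below the share of all genes with securinine and near it with 16F16. At an unadjusted p under 0.05 limma gave 2 lower and 3 higher with securinine, against 18.7% and 14.9% of all genes. With 16F16 it gave 3 lower and 0 higher, against 11.3% and 9.78%. The median of the 47 was 0.0091 with securinine and -0.0062 with 16F16. RPL32 was at 0.46 ± 0.12, RPL29 at 0.31 ± 0.084, RPS24 at 0.22 ± 0.078 and RPL22 at -0.20 ± 0.078 with securinine. Quantile normalization and the other planned settings that kept all arrays called between 0 and 6 of them lower and between 0 and 2 higher. Many ribosomal protein genes have near-identical processed copies, so their separate values are uncertain. Of 14 listed RNA polymerase I factors and shared subunits 5 were measured. None of the 5 passed in limma with securinine, against 19.0% of all genes (1 at an unadjusted p under 0.05). POLR2H was at -0.27 ± 0.085, TBP at -0.20 ± 0.083, TCOF1 at -0.15 ± 0.083 and RRN3 at -0.13 ± 0.086. Both securinine arrays lay below both mock arrays for all 5 (against 33.9% of all genes), and the median was -0.15. Planned settings other than leaving out 1 array called between 0 and 2 of them lower.

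In the MYC network of 11 measured genes, MYC and MXI1 (-0.56 ± 0.088) fell and MXD1 (0.57 ± 0.084) and MLX (0.42 ± 0.081) rose with securinine. The 2 falls and the 2 rises were 18.2% each, against 10.6% and 8.40% of all genes, and the median of the 11 was 0.010. MXD1 and MXI1 are partners of MAX that oppose MYC. MYC kept its call without any 1 array, MXI1 and MLX lost it without any 1 of the mock or securinine arrays, and MXD1 without either mock array or securinine replicate 1. Among 8 measured genes tied to nucleolar stress and p53, the p53 targets BAX, SESN1 and RRM2B rose by 1.17 ± 0.088, 0.996 ± 0.093 and 0.91 ± 0.11 with securinine, and the nucleolar proteins MYBBP1A (-0.80 ± 0.13) and GRWD1 (-0.37 ± 0.076) fell. The 3 rises (37.5%, against 8.40% of all genes) passed without any 1 array. The 2 falls (25.0%, against 10.6%) became 0 without either mock array or securinine replicate 1, and 1 without securinine replicate 2. With 16F16 1 of the 8, BAX, rose by 0.69 ± 0.088 (12.5%, against 0.719% of all genes), and the other 7 did not pass. In the neuroblastoma markers 6 of 12 fell with securinine (against 10.6% of all genes), among them CHGA (-2.22 ± 0.092), DDC (-2.05 ± 0.12) and GATA2 (-1.01 ± 0.10), and HAND1 rose by 0.62 ± 0.086. The 6 became 3 (CHGA, DDC and GATA2) without either mock array or securinine replicate 1, and HAND1 lost its call without any 1 of the mock or securinine arrays. With 16F16 3 of 12 fell (25.0%, against 0.779% of all genes), CHGA (-1.24 ± 0.092), DDC (-1.06 ± 0.12) and CHGB (-0.81 ± 0.097). All 16F16 calls of list genes were lost with only the 4 arrays compared and with the replicate block. No gene passed in those limma fits, where 2904 and 2856 genes were at an unadjusted p under 0.05.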

How the data were processed

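The authors deposited log2 expression values of 53617 probe sets for 6 arrays. Per the submitters' processing notes, RMA and limma were used, and no version is named. RMA corrects background, normalizes arrays together and summarises probes. Genome build, annotation release and filters were not stated there.

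Of the probe sets, 16098 had 1 gene symbol in the platform table and 37519 none there. The brightest probe set over the 6 arrays stood for each of 14884 genes. All were fitted with limma 3.58.1 in R 4.3.3 (lmFit, eBayes, group as the only term), and two-sided p-values were adjusted by Benjamini-Hochberg over all genes. The model had 3 residual and 2.68 prior degrees of freedom, the median SE of a difference was 0.11, and the number of arrays limits the precision. An error after a difference is that SE. The script was tested on simulated data. No scan date or batch is given in the sources used here.

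The members and lists were chosen with earlier results of these data known. Members were given array values if they were RNA polymerase I subunits, among the 5 lowest adjusted p of a role or the 8 lowest p with 16F16, among the 6 largest rises or falls, or differed between treatments. Each list names up to 4 genes with the lowest adjusted p with securinine. Members and list genes named beyond these rules, NOP9, FBL, NHP2, GAR1, SNU13, POLR3GL, XRN2, GRWD1 and CHGB among them, were chosen after their values were seen. Roles and lists were assigned from textbook knowledge. Alternatives varied scaling, probe set choice, genes tested, variance prior, arrays, replicate block and threshold.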

Additional observations from a re-analysis of the deposited data

Results flagged for a closer look

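The treatments differed, by the test of the difference itself, for 6 members, 4 of them higher with 16F16 (6.45%, against 5.55% of all genes) and 2 lower (3.23%, against 3.96%), which are shares near those of all genes. On the log2 scale 16F16 minus securinine was 0.96 for DDX60L, 0.60 for RRS1, 0.48 for NOP53 and 0.41 for NOP14. It was -0.75 for DDX6 and -0.35 for DDX52. RRS1, NOP53, NOP14 and DDX52 lost the call without any 1 of the 6 arrays, and DDX6 and DDX60L without either securinine array or 16F16 replicate 1. Calls over all genes dropped in those fits as well, so these losses are not particular to the 6 members. Each group held 2 arrays, too few to look for an outlying array within a group.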

How the results depend on the processing

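No member that passed changed direction in any alternative. The count of members called with securinine, 17 as reported, was 4 with all probe sets tested, 26 with an intensity trend, 10 with the replicate block and 2 to 14 with an array left out. The 15 that fell became 3, 22, 9 and 1 to 13 in those settings. The 2 that rose became 4 with the trend and 1 with median centring, quantile normalization, all probe sets, the 4 arrays of the comparison, the replicate block and each array left out. The 1 member called with 16F16 became 4 with protein-coding genes only, 3 without dim genes, 16 with the trend, 6 at an adjusted p under 0.1, and 0 with median centring, all probe sets, the 4 arrays, the replicate block and each array left out, with 9 to 20 members at an unadjusted p under 0.05 in limma in those fits. The 6 called for 16F16 against securinine became 18 with the trend, 2 with the 4 arrays, 3 with the replicate block, 0 with all probe sets and 0 to 2 with an array left out. Over all genes, 1572 fell and 1251 rose with securinine, against 376 to 1396 and 253 to 1066 with an array left out and 2198 and 1931 with the trend. For 16F16 against securinine 826 were higher and 590 lower, against 1564 and 1543 with the trend, 342 and 161 with the replicate block, 232 and 92 with the 4 arrays, and none with all probe sets, where no gene passed with 16F16 against mock either (7250 probe sets at an unadjusted p under 0.05 in limma). Same-numbered arrays did not deviate together (correlations from -0.050 to 0.038), which does not show whether same-numbered samples were handled together. The cause of these changes was not tested, beyond fewer arrays or more features tested. Signal over background could not be judged, and DDX4, DDX43 and DDX53 lay at or below the lower quartile on all 6 arrays.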

Other observations

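Several members had more than 1 probe set. The 8 probe sets of GNL1, a GTPase gene of the major histocompatibility region, gave differences with securinine between 0.20 and 0.26. BOP1 was at -0.41 by its brighter and -0.26 by its dimmer probe set. NOL10 was at -0.079 by its brighter and 0.0069 by its dimmer probe set.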
